A study of Homo sapiens with 6 samples.

Results

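The subject here is a set of 8 genes, of 18806 symbols in the deposited table: ATF4 and the transcriptional regulators that act with it in the integrated stress response, namely ATF5, DDIT3, CEBPB, CEBPG, ATF3, TRIB3 and NUPR1. They were chosen by name, and their low level with DDX6 targeted was already known when they were chosen, so their differences from the control guide are given as a description without a test. All 8 passed the filter on low values, a level of at least 1 TPM (a length-corrected share of a library's transcripts) in 2 or more libraries, which 11151 genes passed. The cells, Mono-mac-6, are an established monocytic leukemia line with an MLL-AF9 fusion. Poly(A)+ RNA was sequenced from 3 groups with 2 libraries each: sgNS, a control guide RNA, and sgDDX6.1 and sgDDX6.2, guides that target DDX6, a DEAD-box helicase of processing bodies with roles in mRNA decay and translational repression. Every group derived from a single Cas9-expressing clone, received its guide by lentivirus, was selected with blasticidin and hygromycin B, and was harvested 8 days after infection per the labels. The medium of all groups was supplemented with glutamine, non-essential amino acids, pyruvate and insulin. The labels do not state whether paired libraries were grown apart, so the p-values below measure only the spread between these libraries, which may be technical.

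The integrated stress response starts when one of several kinases phosphorylates the initiation factor eIF2, which lowers protein synthesis in general and raises translation of a few mRNAs with short upstream reading frames, ATF4 among them. ATF4 is a basic leucine zipper (bZIP) protein that binds DNA as a dimer, often with a C/EBP family partner, at the C/EBP-ATF response element, and it activates genes for amino acid synthesis, uptake and tRNA charging. Its own targets include further bZIP factors and inhibitors that feed back on it.

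The element is shown first because ATF4 is known to bind it. Control of genes through it was not measured in these data. In RefSeq promoter windows (GRCh38.p14, 250 bases before to 50 bases after each transcription start) both strands were searched for TGATGNAA, the constant letters of the C/EBP-ATF response element. Of the 7 regulators in that table, 2 held a match, CEBPG and ATF3, against 4.46% of the 27305 genes in it. In a list of ATF4 target enzymes and transporters, 11 of 25 genes held one. That list holds known targets of ATF4 and was chosen with results of these data known, so its count is a description only. Below are 30 bases around the match in those 2 regulators and in the 4 target genes with the lowest log2 differences among those whose match lay at least 11 bases inside the window, each 5′ to 3′ on the strand on which it reads TGATGNAA, with the match in capitals. A match is a description of these letters and not a measured site.
CEBPG, chr19:33374060-33374089, plus strand: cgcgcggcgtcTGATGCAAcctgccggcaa
ATF3, chr1:212565205-212565234, plus strand: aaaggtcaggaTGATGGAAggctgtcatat
CHAC1, chr15:40953251-40953280, minus strand: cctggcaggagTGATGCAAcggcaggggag
ASNS, chr7:97872458-97872487, minus strand: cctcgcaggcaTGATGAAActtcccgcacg
GARS, chr7:30594834-30594863, minus strand: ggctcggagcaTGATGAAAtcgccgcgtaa
SLC7A1, chr13:29595663-29595692, minus strand: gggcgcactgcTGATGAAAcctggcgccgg

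The ATF3 match lay 191 bases before the gene's listed start at 212565407, and the window of its start at 212615018 held none. The CEBPG match lay 42 bases before one of the gene's 2 listed starts, inside the first intron of the transcripts that GENCODE annotates from the earlier start. The 120 bases before that start show how G- and C-rich its surroundings are.
CEBPG, chr19:33373993-33374112, plus strand: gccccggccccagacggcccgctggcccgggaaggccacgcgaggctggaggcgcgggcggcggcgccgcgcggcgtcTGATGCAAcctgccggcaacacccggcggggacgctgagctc

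No TGATGNAA was found in the windows of ATF4, ATF5, DDIT3, CEBPB or TRIB3, which says only that these letters are not in those windows. In the DDIT3 window were 2 CCAAT boxes (CCAAT on either strand, found in 34.6% of all windows of this length), and they stood in opposite orientation a short distance apart. Windows of ATF3, CEBPG and CEBPB held CCAAT boxes as well. DDIT3 is shown for comparison, as a regulator with no match in its windows, with the boxes in capitals.
DDIT3, chr12:57520518-57520637, minus strand: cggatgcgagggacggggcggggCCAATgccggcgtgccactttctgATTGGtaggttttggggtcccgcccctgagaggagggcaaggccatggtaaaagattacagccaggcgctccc

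The ATF4 windows held an E-box (CACGTG, in 7.26% of windows) and a TATA box (TATAAA on either strand, in 11.5% of windows), a window each of CEBPB and ATF3 held a TATA box, and the ATF5 and DDIT3 windows held an AP-1 site (TGANTCA, in 7.71% of windows). The full cyclic AMP response element TGACGTCA was in none of the regulators' windows and in 1.85% of all windows.

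DDX6 was examined first, as a check of the labels. With sgNS its mRNA stood at 102 and 99.5 TPM, and the 4 sgDDX6 libraries, at 52.0 to 54.4 TPM, did not overlap these. Of 10 monocytic and leukemia markers, 9 reached 1 TPM in both libraries within each group, but not the same 9: CSF1R was at 0.71 and 0.98 TPM in sgNS, and CD14, a defining surface marker of monocytes, was below 1 TPM with either DDX6 guide and did not exceed 1.36 TPM in any library. Their summed level was 10258 to 10752 TPM in sgNS and 14631 to 15901 TPM in the sgDDX6 libraries, most of it LYZ, which encodes lysozyme, while singly 5 of the 10 were called higher and 4 lower, MPO among the latter (log2 difference -1.23). Of all genes tested, limma called 66.7% over both guides, 61.6% with sgDDX6.1 and 64.2% with sgDDX6.2 (Benjamini-Hochberg adjusted p under 0.05). Of 8 markers of other cell types, 7 stayed below 1 TPM everywhere, and PECAM1, an adhesion molecule that monocytes also carry, had 64.6 and 66.9 TPM in sgNS and 135 to 200.5 TPM in the sgDDX6 libraries. The part of this shift in markers in the results below was not tested. In bulk RNA, fewer cells of a type and less RNA per cell cannot be told apart.

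All 8 regulators were lower with either DDX6 guide, and the sizes ran from 1.57-fold to 17.0-fold in mean TPM. In each of the 8 the 4 sgDDX6 libraries lay below both sgNS libraries, which held for 31.9% of all genes tested. Of the 8, 7 were at least 2-fold lower over both guides on the log2(TPM + 1) scale, against 2.39% of genes called at least that much lower (adjusted p under 0.05). The median log2 difference of the 8 was -1.86, and that of all 11151 genes was 0.00084. Since the 8 were chosen with this contrast in view, neither count is evidence about them.

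**Figure D1:**
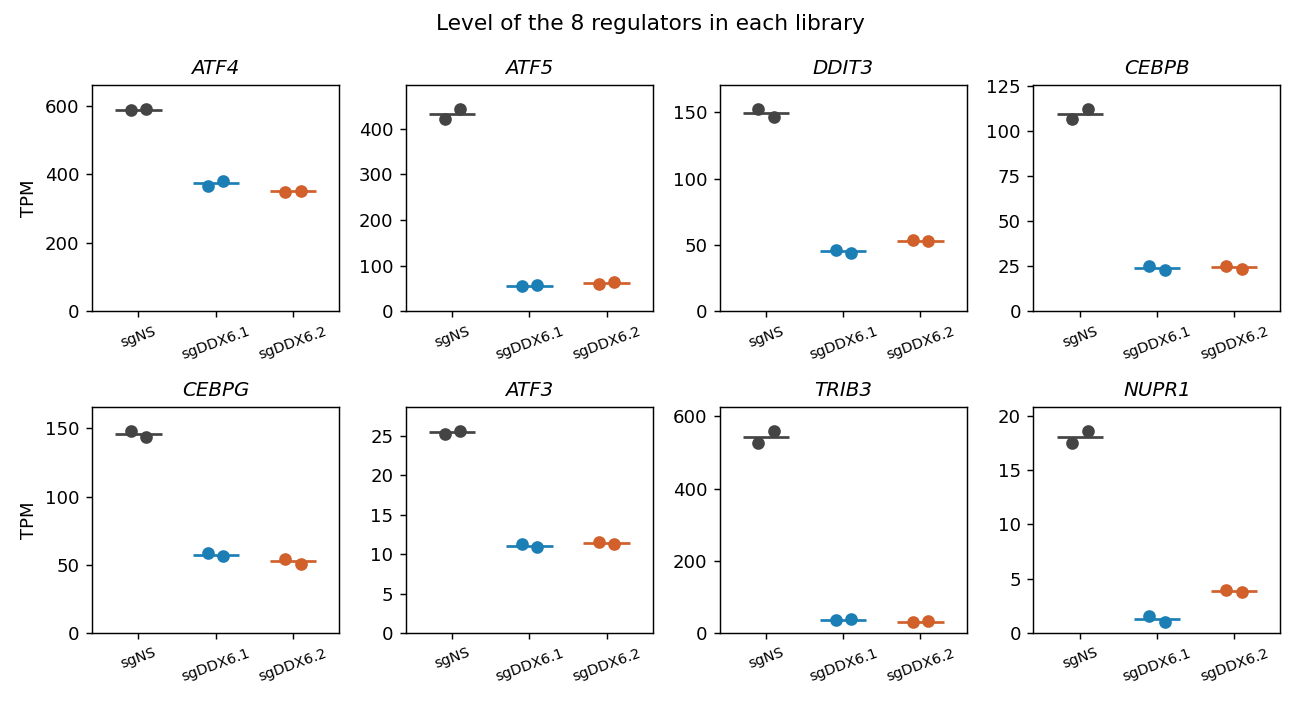
Level (TPM, linear axes from 0) of the 8 regulators in each of the 6 libraries; points are libraries and bars the mean of the 2 libraries of a group. In every panel both sgNS points lie above all 4 sgDDX6 points, with ATF4 at 348 to 381 TPM against 587 and 590, the smallest ratio of the 8, and TRIB3 at 30.7 to 38.5 TPM against 526 and 559, the largest ratio with either guide.

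ATF4 (chromosome 22, 39519695 to 39522685 in GRCh38, ENSG00000128272.14, protein-coding) is the central activator of the response and is mostly regulated at translation. It had 587 and 590 TPM in sgNS, 366 and 381 TPM in sgDDX6.1, and 348 and 351 TPM in sgDDX6.2. The sgDDX6 libraries thus kept 63.5% and 59.4% of the control mean, the largest remainder of the 8. The log2 difference was -0.65 with sgDDX6.1 and -0.75 with sgDDX6.2 (SE 0.04 each). Pseudogenes of ATF4 are annotated in GENCODE and are not in the deposited table. How the authors' estimate treated reads that fit both ATF4 and a pseudogene is not known.

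ATF5 (chromosome 19, 49928702 to 49933935), a second bZIP activator whose mRNA carries upstream reading frames and whose protein is linked to mitochondrial stress, was lower by far more than ATF4. It had 422 and 443 TPM in sgNS, 54.6 and 57.1 TPM in sgDDX6.1, and 60.9 and 64.4 TPM in sgDDX6.2. Both sgDDX6.2 libraries lay above both sgDDX6.1 libraries and far under sgNS, with log2 differences from sgNS of -2.77 and -2.93 (SE 0.05 each). The gene overlaps NUP62 and IL4I1 on the opposite strand, and whether the authors' estimate used strand is not given in the sources used here. NUP62, a nuclear pore protein, was higher over both guides (log2 difference 0.47, limma adjusted p = 1.04e-06), in the direction opposite to ATF5. IL4I1 had 3.53 to 7.73 TPM over all libraries. With sgDDX6.2 minus sgDDX6.1, IL4I1 was higher, like ATF5 (log2 difference 0.75, limma adjusted p = 0.000519), and NUP62 was lower (-0.13, adjusted p = 0.0452). Whether reads of these 2 genes bear on the ATF5 values was not tested.

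Among the dimer partners, DDIT3 (chromosome 12, 57516588 to 57521737) encodes CHOP, a C/EBP-like factor known for its role in stress-induced cell death. It had 152 and 147 TPM in sgNS, 46.3 and 44.0 TPM in sgDDX6.1, and 54.0 and 52.7 TPM in sgDDX6.2. All sgDDX6 libraries stood near a level of 30.2% to 35.6% of the control mean, and the 2 guides did not overlap. DDIT3 shares its locus with MARS and MBD6 on the opposite strand; MARS, the methionyl-tRNA synthetase, was itself lower (log2 difference -1.29, adjusted p = 4.90e-11), as was MBD6 (-0.62, adjusted p = 6.96e-07), and reads of overlapping ends cannot be told apart without strand.

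CEBPB (chromosome 20, 50190734 to 50192689), which encodes a C/EBP factor of both stress and monocyte programs, had 106 and 112 TPM in sgNS, 24.9 and 22.7 TPM in sgDDX6.1, and 25.4 and 23.8 TPM in sgDDX6.2. The 2 guides overlapped, and the log2 difference from sgNS was -2.15 and -2.11 (SE 0.06 each). CEBPG (chromosome 19, 33373330 to 33382686), a small C/EBP protein that lacks an activation domain and dimerizes with ATF4, had 148 and 144 TPM in sgNS, 58.6 and 56.5 TPM in sgDDX6.1, and 54.4 and 50.9 TPM in sgDDX6.2. Its log2 difference was -1.33 and -1.45 (SE 0.05 each), less than that of CEBPB with either guide.

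ATF3 (chromosome 1, 212565334 to 212620777), an inducible bZIP factor that acts mostly as a repressor, was the least abundant of the bZIP genes. It had 25.3 and 25.6 TPM in sgNS, 11.3 and 10.9 TPM in sgDDX6.1, and 11.6 and 11.3 TPM in sgDDX6.2. Replicates differed by under 0.5 TPM, and the libraries of the 2 guides overlapped. The log2 difference was -1.13 and -1.09 (SE 0.06 each).

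Of the feedback regulators, TRIB3 (chromosome 20, 362835 to 397559), a pseudokinase that is induced by ATF4 and CHOP and inhibits both, showed the largest difference of the 8. It had 526 and 559 TPM in sgNS, 36.3 and 38.5 TPM in sgDDX6.1, and 30.7 and 33.0 TPM in sgDDX6.2. Only 6.89% and 5.87% of the control mean remained, and over both guides only 5 of the 11151 genes had a lower log2 difference (TRIB3 -3.94, SE 0.05). Its relatives did not share this size: TRIB1 was higher (log2 difference 0.35, adjusted p = 0.000153) and TRIB2, at 1.88 to 3.42 TPM, was lower by 0.37 on the log2 scale (adjusted p = 0.00905).

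NUPR1 (chromosome 16, 28532708 to 28539174), a small chromatin-associated stress protein, was the least abundant of the 8. It had 17.5 and 18.6 TPM in sgNS, 1.55 and 1.00 TPM in sgDDX6.1, and 4.01 and 3.77 TPM in sgDDX6.2. The sgDDX6.2 libraries lay more than 2 TPM above the sgDDX6.1 libraries, a gap wider than either replicate spread, and both groups lay far below sgNS. At these low levels the log2(TPM + 1) scale understates the change: its log2 difference with sgDDX6.1 was -3.08, and -3.75 with a pseudocount of 0.1.

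The order of levels among the 8 was not the same in the groups. In sgNS, ATF4 (588 TPM), TRIB3 (543) and ATF5 (432) stood far above DDIT3 (150), CEBPG (146) and CEBPB (109), with ATF3 (25.4) and NUPR1 (18.1) last. Libraries of neighbours in this order overlapped only for DDIT3 and CEBPG. In sgDDX6.1, ATF4 (374 TPM) was followed by CEBPG (57.6), ATF5 (55.8), DDIT3 (45.2), TRIB3 (37.4), CEBPB (23.8), ATF3 (11.1) and NUPR1 (1.27), and CEBPG and ATF5 overlapped. In sgDDX6.2, ATF4 (350 TPM) was followed by ATF5 (62.7), DDIT3 (53.3), CEBPG (52.6), TRIB3 (31.9), CEBPB (24.6), ATF3 (11.4) and NUPR1 (3.89), and DDIT3 and CEBPG overlapped. TRIB3 moved from the second place to the fifth with either guide.

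The summed level of the 8 was 1985 and 2038 TPM in sgNS and 589 to 612 TPM in the sgDDX6 libraries. ATF4 made up 29.6% and 28.9% of that sum in sgNS and between 59.1% and 62.3% with DDX6 targeted. Within each library the level of TRIB3 was 89.6% and 94.9% of that of ATF4 in sgNS and between 8.83% and 10.1% in the sgDDX6 libraries. ATF5 went from 71.8% and 75.1% of ATF4 to between 14.9% and 18.3%, and DDIT3 from 25.9% and 24.9% to between 11.5% and 15.5%. The ratio changed least for ATF3, from 4.30% and 4.35% of ATF4 to between 2.86% and 3.32%. These ratios do not depend on how a library was scaled, and in all 7 genes the sgDDX6 libraries lay below both sgNS libraries. ATF4 had the smallest difference of the 8, so lower ratios to it follow for the others and are not separate evidence. The 8 were also chosen with the contrast to sgNS known.

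**Figure D2:**
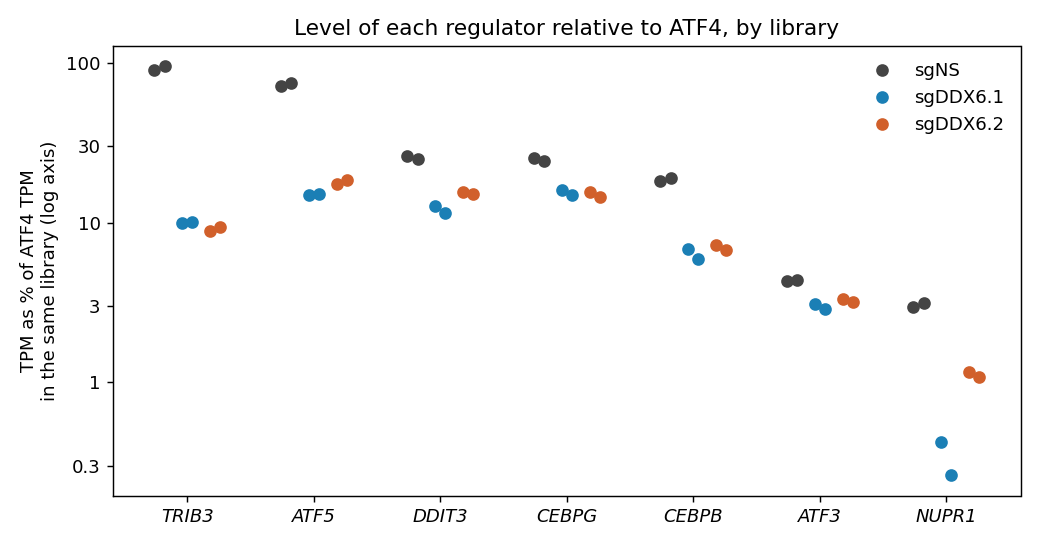
TPM of the other 7 regulators as a percentage of the ATF4 TPM of the same library (log axis); points are libraries, coloured by guide. TRIB3 goes from about the level of ATF4 in sgNS (89.6% and 94.9%) to between 8.83% and 10.1%, while ATF3 stays between 2.86% and 4.35%; every gene has its sgDDX6 points under its sgNS points.

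The estimate of the difference between the 2 DDX6 guides does not use the sgNS values, which enter only the filter and the shared variance, and it was tested for the 8 genes (limma, Benjamini-Hochberg adjustment over 11151 genes). Of the 8, 4 passed an adjusted p of 0.05 (3 higher and 1 lower with sgDDX6.2), against 35.6% of all genes (17% higher and 18.6% lower), a share that does not set the 8 apart. NUPR1 was higher with sgDDX6.2 by 1.11 (SE 0.11, adjusted p = 3.68e-05), and 0.565% of genes were called at least 2-fold higher in this contrast. The size for NUPR1 depended on the pseudocount, with 1.57 at 0.1 and 0.50 at 5, and the call held at both. DDIT3 was higher by 0.24 (SE 0.05, adjusted p = 0.00342) and ATF5 by 0.16 (SE 0.05, adjusted p = 0.0210). TRIB3 was lower with sgDDX6.2 by 0.22 on the log2 scale (a difference of -0.22, SE 0.05, adjusted p = 0.00764). The regulators thus did not move in a common direction between the guides, and their median difference was 0.04, beside -0.02 over all genes.

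The ATF5 and TRIB3 calls did not hold in all settings. Leaving out 1 library kept the direction, at 0.12 to 0.20 for ATF5 and -0.27 to -0.17 for TRIB3. A fit that leaves out a library is also less precise. The ATF5 call was lost without sgDDX6.1 replicate 1 (adjusted p = 0.114), without sgDDX6.2 replicate 2 (adjusted p = 0.190), with no filter (adjusted p = 0.0583) and without the variance trend (adjusted p = 0.0703). The TRIB3 call was lost without sgDDX6.1 replicate 2 (adjusted p = 0.0558) or sgDDX6.2 replicate 1 (adjusted p = 0.0854).

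For the other 4, a difference between the guides was not called, and the 95% intervals give the sizes that the data allow. ATF4 differed by -0.09 (-0.17 to -0.02, adjusted p = 0.0586) and CEBPG by -0.13 (-0.24 to -0.02, adjusted p = 0.0670); the libraries of the guides did not overlap in either gene, as in 69.1% of all genes. CEBPB differed by 0.04 (-0.09 to 0.18, adjusted p = 0.609) and ATF3 by 0.04 (-0.10 to 0.18, adjusted p = 0.680). ATF4 was called under quantile normalization (adjusted p = 0.0216), with the replicate number as a block (0.0203) and without sgDDX6.1 replicate 1 (0.0414), and CEBPG with the block (0.0196).

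**Figure D3:**
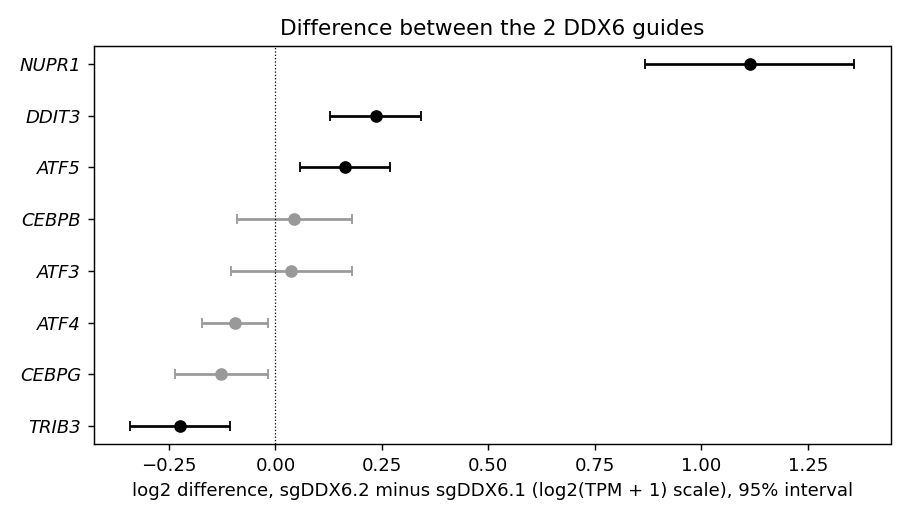
Difference between the 2 DDX6 guides for each regulator (log2(TPM + 1) scale, sgDDX6.2 minus sgDDX6.1); points are limma estimates, bars their 95% intervals, and black marks an adjusted p under 0.05. NUPR1 lies at 1.11, DDIT3 and ATF5 lie above 0 and TRIB3 below it, and the other 4 are grey.

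Genes whose profile over the 6 libraries was most like that of a regulator were found by the root mean square difference of log2(TPM + 1), each gene centred on its sgNS mean, among 9290 other genes with a mean of at least 5 TPM. Nearest to ATF4 were EIF3CL (0.02), a near-identical copy of EIF3C whose reads are hard to assign, R3HDM2 (0.02) and MEX3C (0.04), and 115 genes lay within 0.1 of it. DDIT3 had 1 gene within 0.1, the seryl-tRNA synthetase SARS (0.06), then the copper transporter SLC31A1 (0.10) and the vitamin D hydroxylase CYP2R1 (0.10). Nearest to CEBPB were HERPUD1 (0.12), MTHFD2 (0.12) and TXNIP (0.15). TRIB3 also had 1 gene within 0.1, PSAT1 of serine synthesis (0.08), with CLGN (0.22) and ASNS (0.24) next. Among the 8 themselves, DDIT3 and CEBPG were closest (0.22) and ATF4 and TRIB3 farthest apart (2.64). A fixed distance finds fewer genes near a larger difference, since fewer genes differ that much, so these counts do not rank the 8.

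The transcripts of the 8 have features in GENCODE release 29 that the choice did not use. In 7 of the 8 the principal coding transcript has at least one ATG upstream of the coding start, as in 50.9% of the 10846 tested genes with a coding transcript. ATF4 has 7 in a 5′ untranslated region of 882 bases, longer than in 97.3% of those genes; its upstream frames are the textbook case of translation that rises when eIF2 is phosphorylated. CEBPG, DDIT3 and TRIB3 have 3 each, ATF5 has 2 and ATF3 has 1, while CEBPB, from a single exon, has none. For NUPR1 the annotation holds coding transcripts of very unequal length, and its 2 upstream ATG are those of the longer. At the other end, ATF4 has a 3′ untranslated region of only 81 bases against a median of 1021, and that of CEBPG has 2994 bases with 9 copies of ATTTA, the core of AU-rich decay elements. ATF4, ATF5 and TRIB3 have no ATTTA there, and 68.0% of the genes have at least one. GC at the last codon position ran from 53.3% in CEBPG to 95.4% in CEBPB (median 58.6%). ATF4 and TRIB3, the genes with the smallest and the largest differences, both lack ATTTA and both have upstream ATG. Any relation of these features to the size of the differences was not tested.

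Genes known as targets of these factors were lower as well. The list and the 8 regulators were both chosen with results of these data known, so the counts describe and do not test. Of 31 ATF4 target enzymes and transporters, 30 fell and 1, ALDH18A1 of proline synthesis, rose (log2 difference 0.31), beside 32.9% of all genes called lower and 33.8% higher. In that list 25 fell at least 2-fold, beside 2.39% of all genes called at least 2-fold lower, and the list's median log2 difference was -1.91. CHAC1, which degrades glutathione, had 70.9 and 79.4 TPM in sgNS and between 1.45 and 1.93 TPM in the sgDDX6 libraries (log2 difference -4.83, SE 0.09). ALDH1L2 (-4.25), PSAT1 (-3.94) and SLC6A9 (-3.76) followed. The 8 tRNA synthetase genes in the list all fell, with log2 differences from -2.71 (WARS) to -0.90 (NARS). Of the 6 genes printed above with the element, CHAC1 fell more than TRIB3 (-3.94) and ASNS (-3.66) somewhat less. GARS, SLC7A1 (-1.74), CEBPG (-1.39) and ATF3 (-1.11) lay between TRIB3 and ATF4 (-0.70). The 4 targets among them were printed for their low differences, so these sizes do not stand for all targets with a match. Other targets with a match fell less, among them NARS, SLC1A5 (-0.76) and SLC1A4 (-0.63), the last less than ATF4.

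Of 21 tested stress regulators and secreted factors known as targets of ATF4 or CHOP, 20 fell, 14 of them at least 2-fold, and 1 was called higher over both guides (median -1.52), beside 32.9% of all genes called lower and 2.39% at least 2-fold lower. The glycoprotein STC2 had 45.1 and 46.1 TPM in sgNS and between 0.10 and 0.66 TPM in the sgDDX6 libraries. The stress cytokine GDF15 fell by 4.59, and ADM2 (-3.57) and SESN2 (-3.10), an inhibitor of mTORC1, fell as well. The 1 called higher, CDKN1A, an inhibitor of the cell cycle, went in opposite directions with the guides. It had 25.7 and 25.4 TPM in sgNS, 19.6 and 19.3 TPM in sgDDX6.1, and 42.9 and 44.2 TPM in sgDDX6.2. It fell with sgDDX6.1 (-0.38, limma adjusted p = 0.000113) and rose with sgDDX6.2 (0.75, adjusted p = 3.59e-07), so its value over both guides describes neither.

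**Figure D4:**
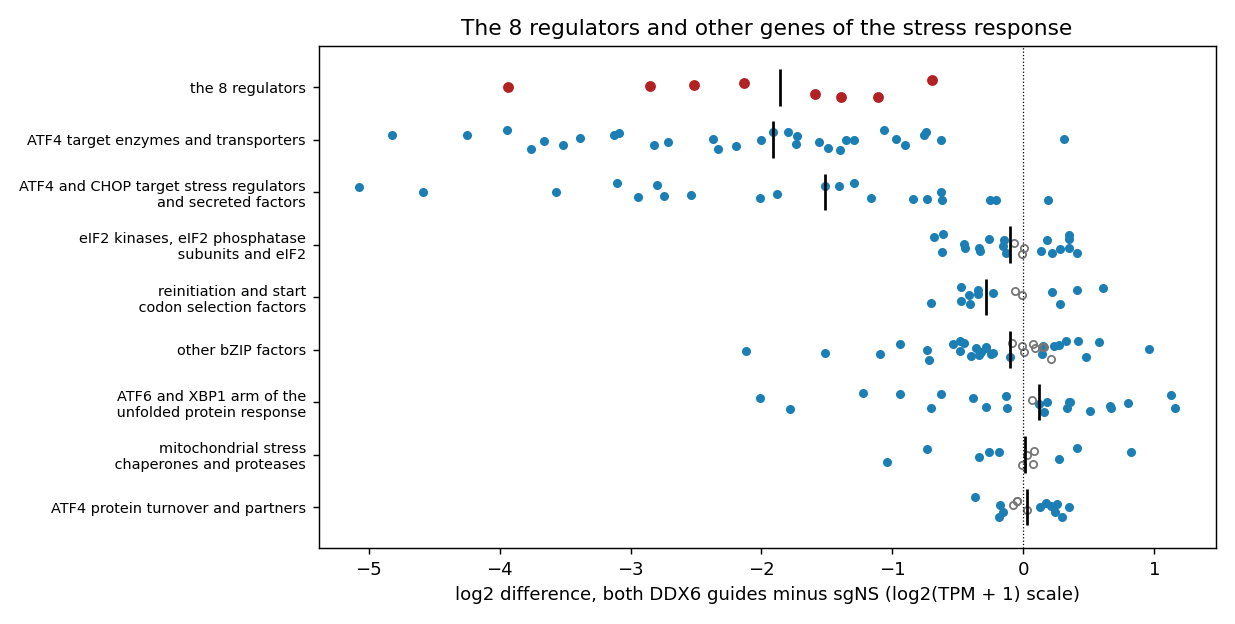
log2 difference of both DDX6 guides minus sgNS for the 8 regulators (red, no test) and for 8 gene lists; filled blue points passed an adjusted p of 0.05, open points did not, and vertical bars are medians. The regulators and both target lists lie mostly below -1, with medians of -1.86, -1.91 and -1.52, and the medians of the other lists lie between -0.29 and 0.12.

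Upstream of ATF4, of 22 eIF2 kinases, phosphatase subunits, eIF2 and eIF2B subunits and related factors, 8 rose and 11 fell, none of them 2-fold (median -0.10), beside 33.8% of all genes called higher and 32.9% lower. The kinases were split: EIF2AK2 (PKR, -0.62) and EIF2AK3 (PERK, -0.34) fell, while EIF2AK1 (HRI) rose by 0.18 and EIF2AK4 (GCN2, the amino acid sensor) by 0.28. PPP1R15A, the inducible subunit that directs eIF2 dephosphorylation and a target of ATF4 and CHOP, had 167 and 167 TPM in sgNS and between 105 and 111 TPM in the sgDDX6 libraries. EIF2S2, the beta subunit of eIF2, fell by 0.68, as did EIF2S3, the gamma subunit (-0.45). Phosphorylation of eIF2 is not measured by mRNA.

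Of 14 factors of start codon selection and reinitiation, which set how upstream frames are passed, 8 fell and 4 rose (median -0.29), against the same 32.9% and 33.8% of all genes. EIF1, which makes start codon choice strict, fell by 0.70, and EIF5, which opposes it, rose by 0.61 (adjusted p = 5.10e-08). DENR, a reinitiation factor, fell by 0.48, as did EIF3D (-0.47). Of 15 tested genes for ATF4 protein turnover and partners, 4 fell and 7 rose, none 2-fold (median 0.03), against 32.9% and 33.8% of all genes. The kinase AKT1, to which TRIB3 binds, rose by 0.29 and the prolyl hydroxylase EGLN2 by 0.26.

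Of 37 other bZIP factors tested, 19 fell and 10 rose (median -0.10), beside 32.9% of all genes called lower and 33.8% higher. At least 2-fold lower were 3, against 2.39% of all genes: BATF3 (-2.12), the ATF3 relative JDP2 (-1.52) and NFE2L1 (-1.10), a regulator of proteasome genes. BATF rose by 0.96. Within the C/EBP family, CEBPA, the granulocyte and monocyte lineage factor, had 217 and 228 TPM in sgNS and between 284 and 312 TPM in the sgDDX6 libraries (log2 difference 0.41, adjusted p = 8.81e-07). CEBPD did not differ by the test (0.01, SE 0.04, adjusted p = 0.907). The direction seen in CEBPB and CEBPG was therefore not shared by these family members.

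Of 23 genes of the ATF6 and XBP1 arm, 12 rose and 10 fell, 2 and 3 of them at least 2-fold (median 0.12), beside 33.8% of all genes called higher, 32.9% lower, 1.01% at least 2-fold higher and 2.39% at least 2-fold lower. The chaperone CALR rose by 1.16, from 1512 and 1544 TPM to between 3127 and 3742 TPM, while HERPUD1, also a target of ATF4, fell by 2.01, and the stress sensor ERN1 (-1.79), DNAJB9 (-1.23) and XBP1 (-0.94) fell too. Of 12 mitochondrial stress chaperones and proteases, 3 rose and 5 fell (median 0.01), against 33.8% and 32.9% of all genes. HSPE1 rose by 0.82 and its partner HSPD1 by 0.41, whereas the protease LONP1 fell by 1.04 and the chaperone HSPA9 fell too (-0.73).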

How the data were processed

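The deposited table holds TPM, which the authors scaled to 1000000 in each library, for 18806 symbols in 6 libraries of 3 groups. RSEM 1.2.31 and GRCh38 were used per the submitters' processing notes; the sources used here name no aligner or annotation. TPM holds no read depth, so no counting interval or detection limit was given, and each value is relative to its library's other transcripts.

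Genes that reached 1 TPM in at least 2 libraries were tested with limma 3.58.1 (R 4.3.3) on log2(TPM + 1): 3 group means, 6 libraries, 3 residual degrees of freedom, variance trend, two-sided, Benjamini-Hochberg over 11151 genes. Differences are on that scale, which understates changes of low genes. The code was tested on simulated data. Both guides share the sgNS libraries. The regulators and gene lists were chosen with earlier results of these data known. Up to 4 genes a list, those with the largest absolute log2 difference among those past the threshold, and the 3 nearest profiles to ATF4, DDIT3, CEBPB and TRIB3 are named by rule; others were named after their values were seen. Coordinates and transcripts are from GENCODE release 29 (GRCh38), promoters from RefSeq (GRCh38.p14, no entry for NUPR1). Alternatives were pseudocounts of 0.1 and 5, filters, scalings, limma settings, a replicate block, fewer groups and leaving out each library.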

Additional observations from a re-analysis of the deposited data

Results flagged for a closer look

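Of the 8 regulators, 4 differed between the 2 DDX6 guides by the test of the difference itself (limma, sgDDX6.2 minus sgDDX6.1, log2(TPM + 1) scale), as did 35.6% of all genes tested. NUPR1 differed by 1.11, with both sgDDX6.2 libraries above both sgDDX6.1 libraries. DDIT3 differed by 0.24 and ATF5 by 0.16, again with 2 of 2 sgDDX6.2 libraries higher. TRIB3 differed by -0.22, with 2 of 2 sgDDX6.2 libraries lower. Libraries of the 2 guides also did not overlap in 69.1% of all genes tested, so this separation does not set the 4 apart. The ATF5 and TRIB3 calls were lost when certain single libraries were left out. No group had 4 or more libraries, so no library could be examined as standing apart within its group.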

How the results depend on the processing

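With 16 alternatives beside the main settings, the regulators were below sgNS in all 400 values computed for the 3 contrasts with sgNS. The median of the 8 was -1.57 over both guides, -1.75 with sgDDX6.1 and -1.40 with sgDDX6.2 at a pseudocount of 5, and -1.82 with sgDDX6.2 at a pseudocount of 0.1. Leaving out 1 library gave medians of -1.98 to -1.88 with sgDDX6.1. Between the guides, leaving out 1 library gave 2252 to 4121 genes called, against 3971 with all libraries, 1172 to 1962 higher and 971 to 2159 lower; the count called was over 1.5 times smaller without sgDDX6.1 replicate 1 (2579) or either sgDDX6.2 library (2252 and 2316). The CEBPB difference between the guides, which was not called, changed sign without sgDDX6.1 replicate 2 (-0.020) or sgDDX6.2 replicate 1 (-0.0012), and leaving out 1 library gave -0.020 to 0.108. With the replicate block 7859 genes were called over both guides, 7402 and 7650 with each guide and 4809 between guides, against 7434, 6866, 7160 and 3971. The labels tie the numbers to no shared culture or day. Replicate deviations correlated by 0.262 (sgNS and sgDDX6.1), 0.0977 (sgNS and sgDDX6.2) and 0.0399 (sgDDX6.1 and sgDDX6.2). Whether libraries of the same number share a culture or day is not known. For both guides, the fit on only the groups compared is the same fit. At a pseudocount of 5 ATF3 was at -0.91 over both guides, under 2-fold. Quantile normalization put ATF4 at -0.82 over both guides. TPM carries no depth, so precision at low levels, as for NUPR1, is unknown.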

Other observations

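The C/EBP-ATF response element TGATGNAA was set beside the differences of all tested genes with a RefSeq promoter window (83.2% of those tested, without the 8 regulators). Of 247 genes whose window held it, 111 (44.9%) were lower over both DDX6 guides by limma and 61 (24.7%) higher, and 28 (11.3%) were at least 2-fold lower. Of 9021 genes without it, 2901 (32.2%) were lower, 3080 (34.1%) higher and 169 (1.87%) at least 2-fold lower. The median log2 difference was -0.09 with the element and 0.01 without it. The 28 include amino acid genes such as ASNS (-3.66), SLC38A1 (-2.65), BCAT1 (-1.88) and GOT1 (-1.62), and tRNA synthetase genes such as IARS (-1.21) and TARS (-1.04). They also include genes that belong to other programs, among them S100P (-3.79), the interferon-induced MX1 (-2.90) and IFIT3 (-1.57), and NLRP12 (-1.94). These genes were named after their values were seen, and no test of the difference in shares was made. Genes of the target lists, such as CHAC1, ASNS and HERPUD1, were kept among the 28. Those lists were chosen with results of these data known, so the shares are not separate evidence.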
